A study of Homo sapiens with 2 samples.

Results

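The 32 genes described here carry out or control the synthesis of cholesterol and fatty acids. The list was drawn up by gene symbol, from the first condensation of the sterol pathway to the activation of finished fatty acids, and not by their values. All 32 were found, each in 1 of the 50868 rows of a table of gene expression in KASUMI-1 cells, a human line from an acute myeloid leukaemia with the RUNX1-RUNX1T1 fusion. Both groups were infected with lentivirus. In one the label reads pccl, which is read here as the control virus, and in the other it reads USP6, the name of a deubiquitinase gene. Each group was 1 RNA sequencing library, from a culture in medium with serum. With no replicates no test was possible, and the intervals below are 95% counting intervals (Clopper-Pearson), which cover no difference between cultures or preparations and treat amplified copies as separate molecules. Where 2 values are set side by side, the first is from the pccl library and the second from the USP6 library.

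Cholesterol and fatty acids are both built from cytosolic acetyl-CoA. In the sterol branch, acetyl-CoA is joined to form mevalonate, which becomes isoprenoid units, then squalene, and, after ring closure, lanosterol and cholesterol. In the fatty acid branch, acetyl-CoA is carboxylated and polymerised to palmitate, which is then elongated, desaturated and attached to coenzyme A. Both branches are under the transcription factors encoded by SREBF1 and SREBF2, which stay in the endoplasmic reticulum while sterols are plentiful, held there by SCAP and the INSIG proteins, and are carried to the Golgi and cut free when sterols fall. Blood cell lines grown in serum can also take up cholesterol and fatty acids from lipoproteins and albumin.

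The stretches of 250 bases before the start sites of 6 members are shown because these members span the differences described below: HMGCS1, IDI1, ACSL3 and SCD stood lowest in the USP6 library against the pccl library among the expressed members, EBP stood highest, and SREBF2 encodes the main regulator of the sterol branch. The sequences are from RefSeq (GRCh38.p14) and read 5′ to 3′ on the strand of the gene. Capitals mark CCAAT, the core of the site bound by NF-Y, a factor that works beside the SREBP proteins at many of these promoters, or its complement ATTGG, and TCACNCCAC, a form of the sterol regulatory element.
HMGCS1: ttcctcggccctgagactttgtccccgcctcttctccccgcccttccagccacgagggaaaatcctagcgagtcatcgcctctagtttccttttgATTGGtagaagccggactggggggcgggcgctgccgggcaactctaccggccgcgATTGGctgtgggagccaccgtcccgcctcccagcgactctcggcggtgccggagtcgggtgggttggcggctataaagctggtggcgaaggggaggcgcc
IDI1: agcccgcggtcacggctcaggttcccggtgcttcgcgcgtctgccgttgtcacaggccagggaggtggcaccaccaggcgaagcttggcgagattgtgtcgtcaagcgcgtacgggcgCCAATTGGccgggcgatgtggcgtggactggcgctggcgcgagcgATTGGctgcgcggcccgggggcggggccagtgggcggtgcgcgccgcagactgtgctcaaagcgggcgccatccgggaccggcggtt
ACSL3: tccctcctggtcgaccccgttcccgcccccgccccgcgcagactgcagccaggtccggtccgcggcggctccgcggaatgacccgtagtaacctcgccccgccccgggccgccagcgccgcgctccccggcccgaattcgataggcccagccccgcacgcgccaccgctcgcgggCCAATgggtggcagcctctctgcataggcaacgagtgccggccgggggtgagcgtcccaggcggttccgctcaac
SCD: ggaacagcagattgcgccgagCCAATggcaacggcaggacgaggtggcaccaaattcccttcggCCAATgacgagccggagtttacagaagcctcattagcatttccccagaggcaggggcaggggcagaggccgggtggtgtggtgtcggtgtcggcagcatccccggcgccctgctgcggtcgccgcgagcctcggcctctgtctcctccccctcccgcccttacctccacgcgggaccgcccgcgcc
EBP: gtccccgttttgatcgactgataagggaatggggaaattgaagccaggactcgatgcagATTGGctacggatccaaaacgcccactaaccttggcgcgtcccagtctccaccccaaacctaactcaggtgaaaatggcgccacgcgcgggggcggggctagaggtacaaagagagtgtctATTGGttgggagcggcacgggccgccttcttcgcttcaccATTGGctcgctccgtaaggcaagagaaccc
SREBF2: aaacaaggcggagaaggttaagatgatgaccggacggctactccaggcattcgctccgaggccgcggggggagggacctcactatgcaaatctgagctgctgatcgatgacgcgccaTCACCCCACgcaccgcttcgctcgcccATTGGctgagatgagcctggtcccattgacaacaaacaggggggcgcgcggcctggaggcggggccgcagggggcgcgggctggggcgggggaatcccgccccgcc
They lie at chr5:43313413-43313662 (minus strand), chr10:1048887-1049136 (minus strand), chr2:222860786-222861035 (plus strand), chr10:100346983-100347232 (plus strand), chrX:48521558-48521807 (plus strand) and chr22:41832855-41833104 (plus strand). For genes with several RefSeq starts, the one with the most CCAAT matches is shown. In IDI1, the match 132 bases before the start overlaps the one at 129 on the other strand.

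CCAAT was frequent before the members' start sites, both in those that were lower in the USP6 library and in the rest. RefSeq promoters were found for 28 of the 32 members. On either strand, 20 of these 28 held CCAAT in the 250 bases before at least 1 start (71.4%), and 13 held 2 or more. Over 6879 expressed genes with a RefSeq promoter, 41.1% held CCAAT and 15.9% held 2 or more. The 28 members include MVK, HSD17B7, INSIG2 and SC5D, which do not count as expressed below. Counted by single windows, 24 of the members' 38 held CCAAT, against 32.01% of all 35116 promoter windows. Of the 13 matched members that were lower by the limit defined below, 9 held CCAAT, and of the other 15, 11 did. Within a single window NSDHL and MVK had the most, with 5 matches each. TCACNCCAC occurred in 1 member, SREBF2, 133 bases before the start. It occurred in 1.13% of the expressed genes and in 0.883% of all windows. GGGCGG (GC box) and CACGTG (E-box) were searched in the same way. GGGCGG occurred in 27 of the 28 members (96.4%), against 75.4% of the expressed genes, and CACGTG in 3 (10.7%), against 11.8%. The NF-Y and SREBP proteins were not measured, and a match of letters does not show that a factor is bound. Since only 1 form of the sterol regulatory element was searched, and only in these 250 bases, a missing match does not show that a member lacks one.

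The libraries were of similar size, with 12306442 counts with pccl and 12518795 with USP6, of which the mitochondrial genome took 49.9% and 45.6%. The annotated USP6 gene had 8 and 70 counts, and reads of the lentiviral construct may or may not be among them. Of 8 markers of the labelled myeloid blast, 7 were expressed in at least 1 library. Their summed level was 241 and 406 FPKM (fragments scaled to gene length and library total), with the stem cell factor receptor KIT lower and the myeloid factor SPI1 higher in the USP6 library. Markers of cell types known for high lipid synthesis were low. Of 4 adipocyte markers, 3 had no count in either library and LEP had 1 count in all. Of 4 hepatocyte markers, ALB and TTR had no count and APOA2 had 1 count in all. APOA1 had 2 and 25 counts (0.0868 and 1.07 FPKM), 12.3-fold higher (3.06 to 107), and the list summed to 0.114 and 1.07 FPKM. T cell markers summed to 1.35 and 7.56 FPKM and B cell markers to 2.68 and 10.6 FPKM, erythroid markers to 0.0796 and 0.0782 FPKM with 2 of 5 at 0, and stromal, endothelial and epithelial markers to 17.4 and 8.97 FPKM, nearly all from EPCAM. Whether these shifts bear on the genes below was not tested, and in bulk RNA fewer cells of a type and less RNA per cell cannot be told apart.

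Nearly all enzymes of the fatty acid branch were lower in the USP6 library, while those of the sterol branch and the regulators were mixed. Genes that reached 1 FPKM in either library count as expressed, and the difference is log2((USP6 + 1)/(pccl + 1)) of the FPKM values. On this scale a gene at or past 0.58 or -0.58, the log2 of 1.5, is called higher or lower. Of the 32 members, 28 were expressed, and 15 of these were lower and 4 higher, against backgrounds of 24.5% lower and 27.9% higher over all 10153 expressed genes and of 25.2% and 24.7% over the protein-coding ones. The median of the 28 was -0.68, against 0.06 for all expressed genes. At a 2-fold limit, 9 members were lower and 1 was higher, with backgrounds of 11.4% and 13.7%. A member can pass the filter through the library where it is high. HMGCS1, ACSL3, ACACA and STARD4 were under 1 FPKM in the USP6 library and TM7SF2 was so in the pccl library. This leaves 11 lower and 3 higher among the 23 members that reached 1 FPKM in both. The shares of all genes under this stricter filter were not computed, so these counts stand without a background. The counting interval of the ratio lay wholly below 1 in 20 of the 28 expressed members and wholly above 1 in 5, against 38.5% and 42.1% of all expressed genes, respectively. MVK, HSD17B7, INSIG2 and SC5D were under 1 FPKM in both libraries.

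**Figure D1:**
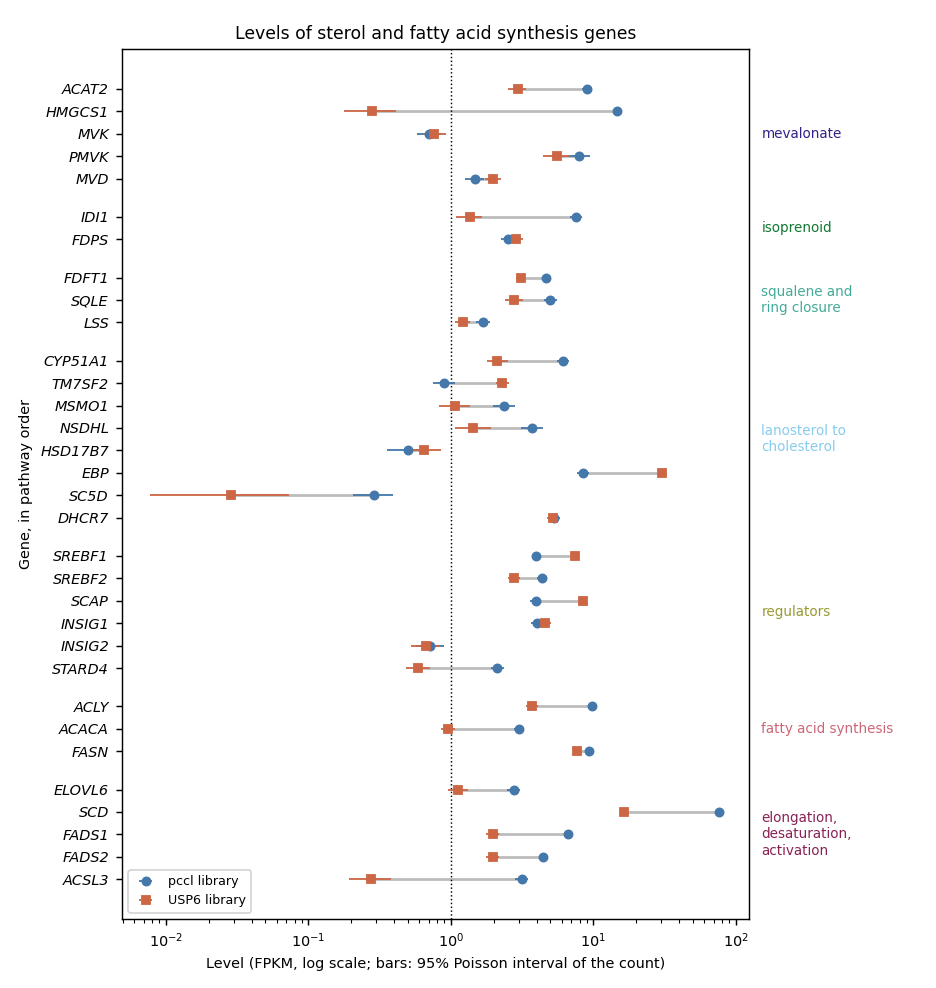
Levels of the 32 genes in FPKM (log axis) in the pccl library (circles) and the USP6 library (squares), in pathway order, with 95% Poisson intervals of the count as bars and a dotted line at 1 FPKM. SCD is the most abundant in the pccl library at 75.7 FPKM and EBP in the USP6 library at 30.3 FPKM, and HMGCS1 spans the widest gap of the expressed genes.

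**Figure D2:**
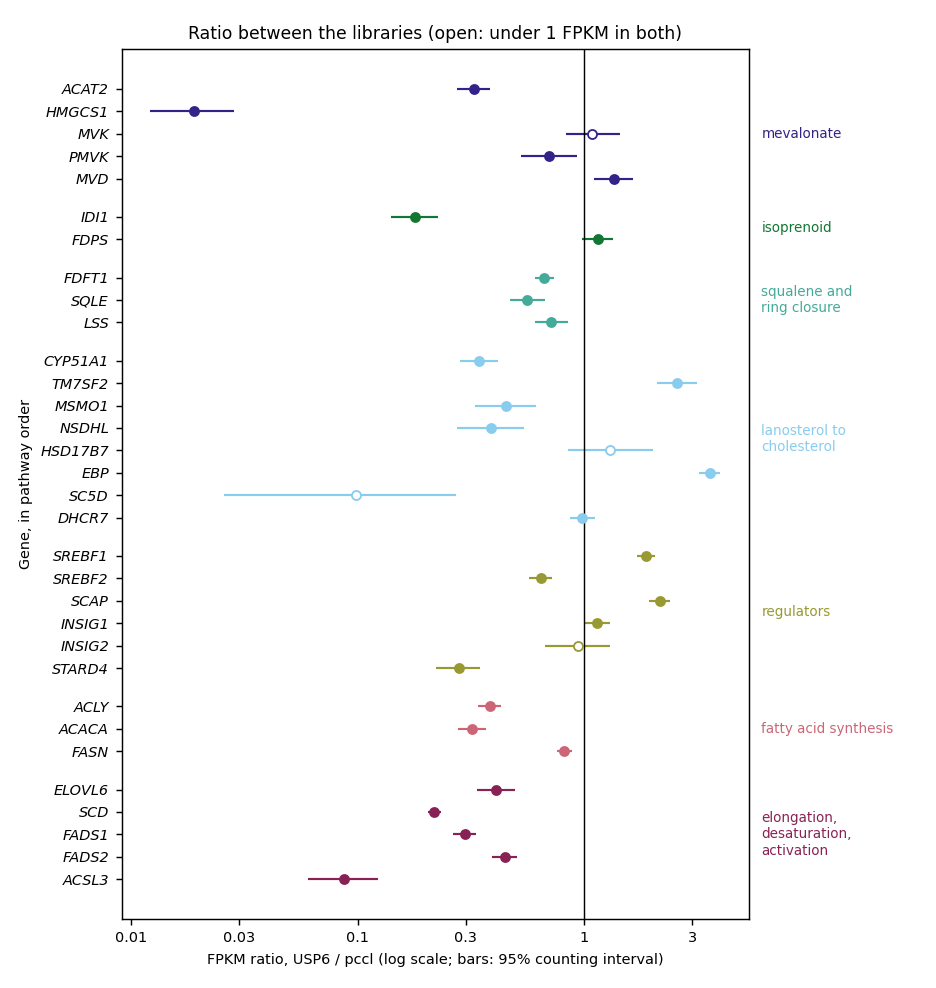
FPKM ratio of the USP6 to the pccl library for each gene (log axis) with its 95% counting interval, in pathway order; open circles are genes under 1 FPKM in both libraries and the line marks equal levels. The 5 genes of elongation, desaturation and activation all lie to the left, whereas EBP, TM7SF2, SREBF1 and SCAP lie to the right.

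The steps to mevalonate and its phosphates were lower at the start and within the 1.5-fold limit further on. After the centring on GC content given below, PMVK was past the limit, and 3 of the 4 expressed genes were lower. ACAT2, the cytosolic thiolase that joins 2 acetyl-CoA molecules, had 554 counts (9.05 FPKM) with pccl and 183 counts (2.94 FPKM) with USP6, 3.08-fold lower (2.60 to 3.66). HMGCS1, the synthase of HMG-CoA, had 1242 counts (14.6 FPKM) and 24 counts (0.278 FPKM), 52.6-fold lower (35.2 to 82.5). It was the member with the largest difference, and its log2 ratio of -3.61 ranked 10 from the lowest of all expressed genes. By level it ranked 2 of the 32 members with pccl and 30 with USP6, and its part in the summed FPKM of the mevalonate group went from 43.3% to 2.41%. The kinases and the decarboxylase that follow did not share this drop in level. PMVK, phosphomevalonate kinase, had 7.94 and 5.55 FPKM, 1.43-fold lower (1.08 to 1.90), and MVD, the decarboxylase, had 1.47 and 1.99 FPKM, 1.35-fold higher (1.11 to 1.65), both within the 1.5-fold limit. MVK, mevalonate kinase, had 0.705 and 0.766 FPKM with an interval of the ratio that held 1 (0.826 to 1.43). Summed over the 5 genes, the level was 33.8 FPKM with pccl and 11.5 FPKM with USP6.

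ACAT2, HMGCS1 and MVK share exon sequence with genes on the opposite strand, and whether the counting used strand was not given. ACAT2 shares 397 exon bases (9.23% of its exons) with TCP1, a chaperonin subunit gene that had 18.9 and 4.93 FPKM. Reads from the shared part cannot be told apart without strand. For HMGCS1 the overlapping antisense gene had no count in either library. MVK shares 306 exon bases (4.72%) with MMAB on the opposite strand, which had 141 and 69 counts beside the 104 and 115 of MVK. HMGCS1 (ENSG00000112972) is listed on chromosome 5 from 43289395 to 43313512.

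Of the 2 isoprenoid genes, IDI1 was lower and FDPS was not. IDI1, which interconverts the isopentenyl and dimethylallyl units, had 478 counts (7.56 FPKM) with pccl and 87 counts (1.35 FPKM) with USP6, 5.59-fold lower (4.44 to 7.11). FDPS, which joins these units into farnesyl diphosphate, had 2.51 and 2.87 FPKM, with an interval of the ratio from 0.980 to 1.34. FDPS has 8 listed pseudogene copies by symbol, of which 1 had a count, FDPSP4 with 2 counts in the USP6 library, so few reads were assigned to the copies.

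Of the 3 genes from squalene to lanosterol, SQLE was lower and FDFT1 and LSS were within the limit. FDFT1, squalene synthase, had 4.62 and 3.09 FPKM, a ratio of 0.667 (0.603 to 0.738), and was within the limit on the scale with the pseudocount at -0.46. SQLE, the epoxidase that uses oxygen to open the way to ring closure, had 4.98 and 2.79 FPKM, a ratio of 0.560 (0.468 to 0.667), and was past the limit at -0.66. LSS, which folds the epoxide into lanosterol, had 1.69 and 1.21 FPKM, 1.40-fold lower (1.18 to 1.65). All 3 intervals lay below 1, and the summed level of the group was 11.3 and 7.08 FPKM.

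The conversion of lanosterol to cholesterol held members that went in opposite directions. CYP51A1, the cytochrome P450 that removes a methyl group from lanosterol, had 406 counts (6.17 FPKM) and 142 counts (2.12 FPKM), 2.91-fold lower (2.40 to 3.55). The enzymes that take off the next methyl groups were also lower, MSMO1 with 2.37 and 1.07 FPKM (2.21-fold, 1.63 to 3.03) and NSDHL with 3.72 and 1.44 FPKM (2.58-fold, 1.85 to 3.66). HSD17B7, which works with this pair, had 40 and 53 counts, and its copy HSD17B7P2 had 11 and 32 counts, so reads may be split between them. SC5D, the desaturase near the end of the pathway, had 40 counts with pccl and 4 with USP6, 10.2-fold lower (3.68 to 39.1) at levels of 0.290 and 0.0285 FPKM.

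EBP and TM7SF2 were higher in the USP6 library and DHCR7 was level. EBP, which moves the double bond of the sterol ring, had 438 counts (8.47 FPKM) with pccl and 1594 counts (30.3 FPKM) with USP6, 3.58-fold higher (3.22 to 3.99). It was the member with the highest log2 ratio, 1.72, and went from rank 6 to rank 1 by level among the 32, with 3.91% and 24.3% of their summed FPKM. EBP (ENSG00000147155) is listed on chromosome X from 48521158 to 48528716. TM7SF2, a sterol reductase, had 132 counts (0.898 FPKM) and 344 counts (2.30 FPKM), 2.56-fold higher (2.09 to 3.16). It shares 16 exon bases with VPS51 on the same strand, which had 3.81 and 7.95 FPKM. DHCR7, the reductase of the last step of one route, had 494 and 492 counts, or 5.32 and 5.20 FPKM, with an interval of the ratio from 0.862 to 1.11. Because of EBP, the summed level of the 8 genes was higher in the USP6 library, at 43.1 FPKM against 27.7, although 3 of its 6 expressed genes were lower.

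Of the 5 expressed genes of regulation and transport, SREBF1 and SCAP were higher and STARD4 was lower. After the centring on GC content that is given further on, neither SREBF1 nor SCAP was past the limit, and 2 of the 5 were lower and 0 higher. SREBF1 had 769 counts (3.98 FPKM) with pccl and 1462 counts (7.44 FPKM) with USP6, 1.87-fold higher (1.71 to 2.04). SREBF2 had 701 counts (4.33 FPKM) and 457 counts (2.77 FPKM), 1.56-fold lower (1.38 to 1.76), which on the scale with the pseudocount, at -0.50, stayed within the limit. The level of SREBF1 was 0.919 times that of SREBF2 with pccl and 2.68 times with USP6. The counts do not separate the SREBF1 transcripts that differ in their start, and SREBF1 shares 556 exon bases with RAI1 on the opposite strand, which had 0.402 and 0.618 FPKM.

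SCAP, the escort of the SREBP proteins, had 520 counts (3.93 FPKM) and 1138 counts (8.46 FPKM), 2.15-fold higher (1.94 to 2.39). INSIG1, a retention protein that is itself a classic SREBP target, had 402 and 466 counts, or 4.05 and 4.61 FPKM. Its interval of the ratio, 0.995 to 1.31, held 1. INSIG2 had 0.716 and 0.669 FPKM, also with an interval that held 1 (0.673 to 1.29). STARD4, a carrier that moves cholesterol between membranes, had 363 counts (2.11 FPKM) and 103 counts (0.590 FPKM), 3.59-fold lower (2.87 to 4.51).

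In the making of palmitate, ACLY and ACACA were lower and FASN was within the limit, although past it after centring on GC content. ACLY, which cleaves citrate to supply cytosolic acetyl-CoA, had 1093 counts (9.75 FPKM) and 425 counts (3.73 FPKM), 2.62-fold lower (2.34 to 2.93). ACACA, the carboxylase that commits acetyl-CoA to fatty acids, had 842 counts (2.99 FPKM) and 274 counts (0.956 FPKM), 3.13-fold lower (2.72 to 3.60). FASN, the multienzyme that builds the chain, had 1452 counts (9.40 FPKM) and 1204 counts (7.66 FPKM), 1.23-fold lower (1.14 to 1.33). FASN was thus 3.14 times as abundant as ACACA with pccl and 8.01 times with USP6. After centring on GC content the log2 ratios of FASN and ACACA were close to each other, at -1.04 and -0.98.

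All 5 genes that lengthen, desaturate or activate fatty acids were lower in the USP6 library. SCD, which puts the first double bond into stearate and palmitate, had 4995 counts (75.7 FPKM) with pccl and 1108 counts (16.5 FPKM) with USP6. The level was 4.59-fold lower (4.30 to 4.90). SCD made up 34.9% of the summed FPKM of the 32 members in the former and 13.2% in the latter. ACSL3, an acyl-CoA synthetase of the endoplasmic reticulum and lipid droplets, had 405 counts (3.14 FPKM) and 36 counts (0.274 FPKM), 11.4-fold lower (8.13 to 16.6). ELOVL6, the elongase that takes palmitate to stearate, had 2.76 and 1.13 FPKM, 2.45-fold lower (2.02 to 2.97).

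FADS1 and FADS2, neighbouring desaturase genes that act on polyunsaturated fatty acids, went together. FADS1 had 1334 counts (6.62 FPKM) and 402 counts (1.96 FPKM), 3.38-fold lower (3.02 to 3.78). FADS2 had 836 counts (4.43 FPKM) and 378 counts (1.97 FPKM), 2.25-fold lower (1.99 to 2.55). They lie on opposite strands of chromosome 11 and share 490 exon bases, which is 4.79% of the exons of FADS1 and 4.44% of those of FADS2. FADS2 also shares 49 exon bases with FEN1 on the same strand. The summed level of the 5 genes was 92.6 FPKM with pccl and 21.8 FPKM with USP6.

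**Figure D3:**
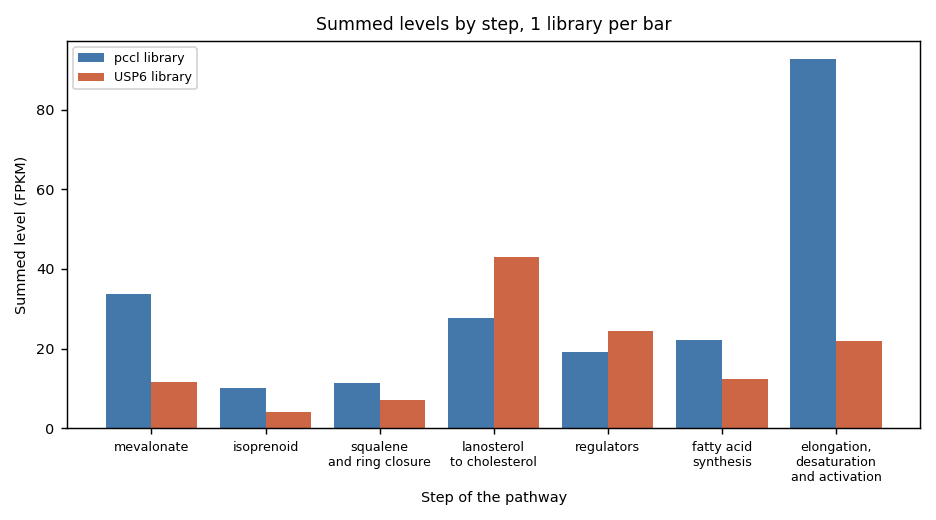
Summed FPKM of the genes of each step in the pccl library (left bar) and the USP6 library (right bar), 1 library per bar and no error. The sum is lower in the USP6 library in 5 of the 7 steps, from 92.6 to 21.8 FPKM for elongation, desaturation and activation, and higher for lanosterol to cholesterol (27.7 and 43.1 FPKM) and for the regulators (19.1 and 24.5 FPKM).

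Set by branch, nearly all enzymes of fatty acid synthesis were lower, whereas those of sterol synthesis were mixed. Of 8 fatty acid enzymes, 7 were lower and 0 higher (median log2 ratio -1.11), with summed levels of 115 and 34.2 FPKM, and over all expressed genes 24.5% were lower and 27.9% higher. Of 15 expressed sterol enzymes, 7 were lower and 2 higher (median -0.46), with summed levels of 82.9 and 65.9 FPKM over all 18. The difference between the branches was not tested. Without SCD, the 31 other members summed to 141 and 108 FPKM, against 217 and 125 FPKM with it. Sums over all genes were also lower in the USP6 library, at 0.891 times the pccl sum, and at 0.847 times for protein-coding genes. The ratio was 0.796 for the sterol enzymes, 0.298 for the fatty acid enzymes and 0.767 for the members without SCD.

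The members' ratios went with the GC content of their transcripts, as did those of all genes. Over the 28 expressed members, Pearson's r between log2 ratio and GC content of the longest transcript was 0.62 and Spearman's rho 0.67. Over 8254 expressed protein-coding genes they were 0.44 and 0.46. These are relations across genes of 1 pair of libraries, which share depth and preparation. The lower members had a median GC content of 46.5% and the other expressed members one of 58.3%. Under 50% GC, 10 of 12 members were lower and 0 higher, where 35.1% of all such genes were lower and 16.3% higher. At 50% GC or more, 5 of 16 members were lower and 4 higher, where 11.7% of all such genes were lower and 41.7% higher. The split at 50% was set after the data had been seen, and ACAT2 and FADS1 lie just above it at 50.2% and 50.1%.

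Centred on the trend with GC content, 7 of 8 fatty acid enzymes were lower and 0 higher, and 7 of 15 expressed sterol enzymes were lower and 1 higher. All but 1 of the higher members came close to the trend. In this setting the limit was passed downward by 16 members and upward by 1 (median -0.81), against backgrounds of 22.5% lower and 22.1% higher over 10105 genes. Of the 15 lower members 12 were so again, among them HMGCS1 at -3.27, SCD at -2.01 and IDI1 at -1.55. SQLE, ELOVL6 and MSMO1 came within the limit, at -0.51, -0.51 and -0.34. Of the members within the limit before, 4 were now lower: FASN at -1.04, PMVK at -0.95, SREBF2 at -0.86 and LSS at -0.72. MVD and FDPS, above 0 before, were at -0.43 and -0.16. EBP remained higher at 1.55, whereas SCAP was at 0.30, SREBF1 at 0.09 and TM7SF2 at 0.07. The part of GC content in the difference of any single gene was not tested.

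**Figure D4:**
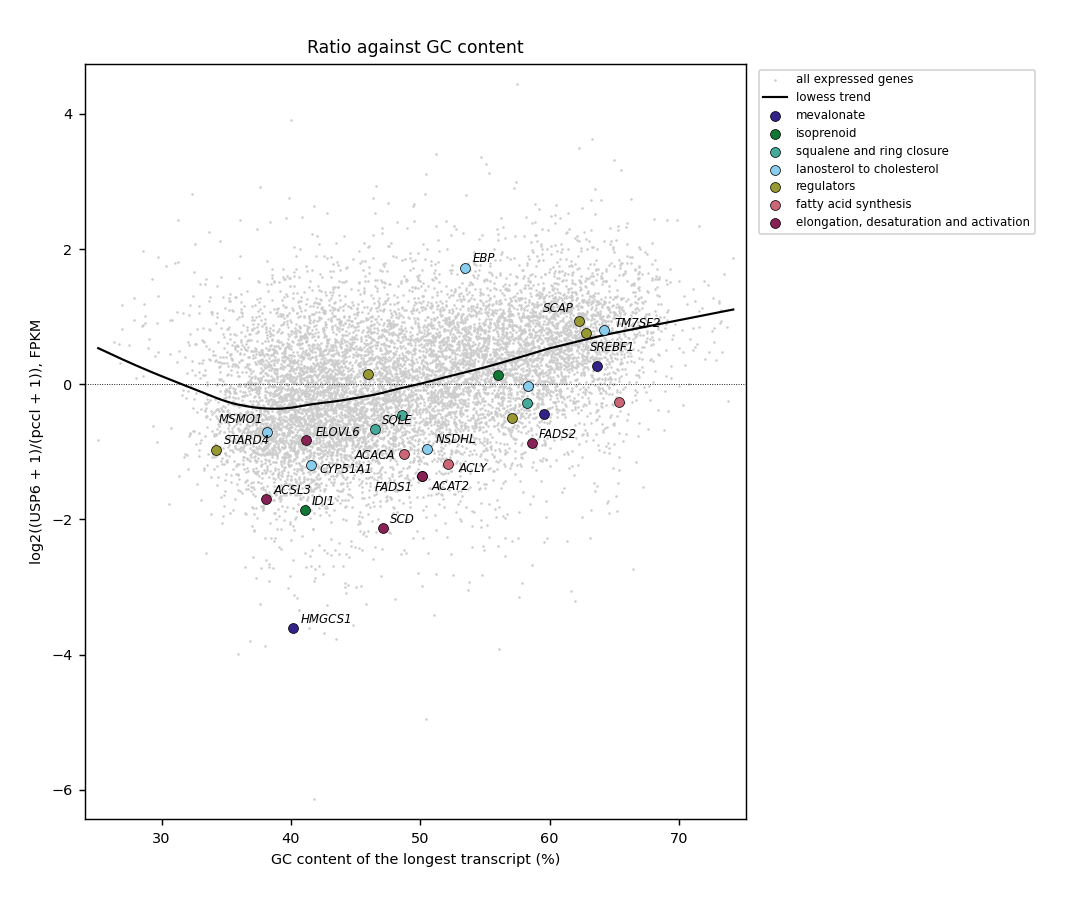
Log2 ratio of the USP6 to the pccl library (FPKM, pseudocount of 1) against the GC content of the longest transcript in percent, for all 10105 expressed genes with a GC value (grey), their lowess trend (line) and the 28 expressed members (coloured by step, named where past the 1.5-fold limit). EBP lies well above the trend, SCAP, SREBF1 and TM7SF2 close to it, and HMGCS1 and SCD far below it.

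Genes next to the members in the same pathways were lower more often than higher. On centring, the counts came closer to each other, while the median hardly moved. Of 87 expressed genes on 8 lists, 32 were lower and 16 higher by the 1.5-fold limit (median -0.29), against 24.5% and 27.9% of all genes. Their median GC content was 46.9%, and centred on the GC trend 22 were lower and 15 higher, against 22.5% and 22.1% of all genes. The centred median was -0.29, against -0.02 over all genes. The branches that leave the sterol pathway at farnesyl diphosphate, which supply prenyl groups, dolichol and the tail of coenzyme Q, had 7 lower and 2 higher of 11 (median -0.68). This list had a median GC content of 40.4%, in the range under 50% where 35.1% of all genes were lower, and centring left 5 lower and 2 higher with a median of -0.34. ICMT, which methylates prenylated proteins, was 3.18-fold lower (2.75 to 3.69), and NUS1, a subunit of the dolichol-making prenyltransferase, had 46.2 and 20.9 FPKM. PDSS2, for coenzyme Q, was 2.79-fold lower (2.16 to 3.64).

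Proteins that process the SREBP factors or take part in sterol-dependent turnover had 5 lower and 0 higher of 10 (median -0.59), and 4 and 0 after centring. MBTPS2, the protease that makes the second cut, had 2.55 and 0.405 FPKM, 6.30-fold lower (4.62 to 8.76). ERLIN1, a membrane protein that binds SCAP and INSIG complexes, had 5.04 and 1.19 FPKM, 4.24-fold lower (3.40 to 5.34). Electron donors and partners of the sterol and fatty acid oxygenases had 3 lower and 1 higher of 8 (median -0.50), and 2 and 1 after centring. PGRMC1, a partner of CYP51A1, had 18.6 and 3.87 FPKM, CYB5R3, the reductase that feeds the desaturases through cytochrome b5, had 2.20 and 0.378 FPKM, and CYB5B had 1.48 and 3.99 FPKM.

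Further genes of fatty acid supply, elongation and activation had 6 lower and 2 higher of 14 (median -0.49), and 5 and 2 after centring. HACD2, a dehydratase of the elongation cycle, had 11.5 and 0.237 FPKM, and ELOVL5, an elongase of polyunsaturated chains, had 16.8 and 3.03 FPKM, 5.55-fold lower (4.83 to 6.39). ACSL4, which activates arachidonate, was 3.29-fold lower (2.92 to 3.71). TECR, the reductase that ends each elongation cycle, had 10.8 and 23.1 FPKM and was thus 2.14-fold higher (2.02 to 2.27). Cholesterol transport and esterification had 4 lower and 1 higher of 10 (median -0.19), and 3 and 2 after centring. LIPA, the lysosomal lipase that frees cholesterol from its esters, had 477 and 12 counts, 40.4-fold lower (22.9 to 78.8), and SOAT1, which esterifies cholesterol, had 409 and 32 counts, a ratio of 0.0769 (0.0519 to 0.110). GRAMD1A, a sterol carrier at membrane contacts, had 9.24 and 27.0 FPKM, 2.92-fold higher (2.72 to 3.14). The list of the LXR pathway and sterol efflux had 0 lower and 1 higher of 5 expressed genes (median 0.37, and -0.08 after centring), RXRA at 3.09-fold higher (2.64 to 3.61). Its efflux genes ABCA1 (4 and 0 counts) and ABCG1 (0 and 7) were under 1 FPKM in both libraries. The pair was named after its values were seen, and the median of the list covers neither of them.

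**Figure D5:**
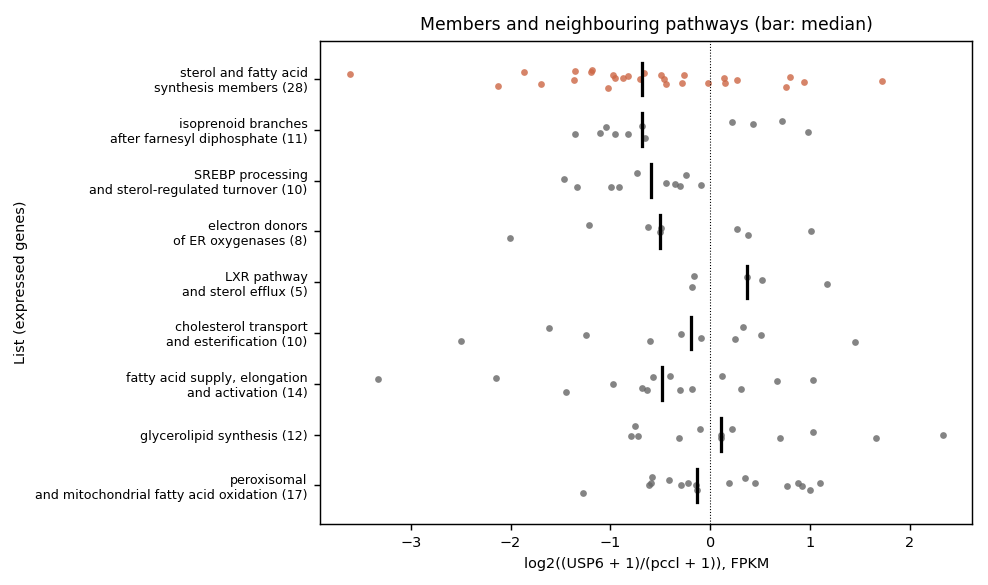
Log2 ratio of the USP6 to the pccl library (FPKM, pseudocount of 1) for each expressed gene of the 28 members (top, coloured) and of 8 neighbouring pathway lists (grey), with the median of each as a bar and the number of genes in brackets. The medians of the members (-0.68) and of the isoprenoid branches (-0.68) lie lowest, and those of the LXR (0.37) and glycerolipid (0.11) lists lie above 0. The efflux genes ABCA1 and ABCG1 of the LXR list are not among its expressed genes.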

How the data were processed

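RNA sequencing libraries, 1 per group, were made from total RNA of KASUMI-1 cells, per the labels' protocols. Tools listed in the submitters' processing notes, with no roles stated, are edgeR, HISAT2 2.0.4 and StringTie 1.3.3b. The sources used here do not give the genome build, annotation or strandedness. The deposited counts are whole numbers per gene, and the deposited FPKM values equal the count over a gene length and the column total, with the same implied length in both libraries (within 0.1%) in all 16030 genes counted in both. Rows of 1 symbol were summed (50464 symbols). The loci of 30 of the 32 members equal those of GENCODE release 29, which gave GC content and exons. The members, lists and settings were chosen with earlier results of these data known. Named genes were all members, and of each neighbouring list up to 4 at or past 2-fold on the scale with a pseudocount of 1. With 0 residual degrees of freedom no test was made, although counts were deposited. Ratios are of FPKM, with exact conditional binomial intervals at 95% from the counts. The GC trend was a lowess fit (span 0.3). Alternatives used pseudocounts of 0.1, 0.5 and 5, other filters and limits, and other scalings of the USP6 values (edgeR 4.0.16 for the trimmed mean of M values). Promoter sequences are from RefSeq (GRCh38.p14). The steps were tested on simulated data. R 4.3.3, Python 3.11.15, pandas 2.3.3, SciPy 1.17.1 and statsmodels 0.14.6 were used.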

Additional observations from a re-analysis of the deposited data

How the results depend on the processing

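No paired analysis was possible because each group holds 1 library, and no replicate could be left out. No called member changed direction with another pseudocount, scaling or GC centring. Scaling by nuclear counts or the trimmed mean lowered the USP6 values by 0.12 and 0.10 on the log2 scale, and all 15 lower and 4 higher members were past the limit under the 4 scalings. With a pseudocount of 5 FPKM, which shrinks low genes, members numbered 8 lower and 2 higher, median -0.32. All genes were then 9.37% lower and 10.9% higher, and neighbouring genes 11 lower and 7 higher. With a pseudocount of 0.1 the median of the members was -0.95. With 5 FPKM asked of the higher library, 13 members were left, of which 7 were lower and 3 higher (median -1.19). Under this filter 28.9% of all genes were lower and 33.1% higher. Of the 30 neighbouring genes left, 13 were lower and 9 higher. With no filter, 13.7% of all genes were lower and 15.9% higher. At the 2-fold limit 9 members were lower and 1 higher, 11.4% and 13.7% of all genes, and 14 and 9 neighbouring genes. Centred on GC content, 1 member was higher. Members with few counts limit what can be read: SC5D had 4 counts and HMGCS1 24 in the USP6 library. With 1 library per group, differences between cultures and between conditions cannot be told apart.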

Other observations

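The lists of glycerolipid synthesis and fatty acid oxidation had counts near the shares over all genes, 24.5% lower and 27.9% higher. Single genes are given as values. Of 12 expressed genes of glycerolipid synthesis, 3 were lower in the USP6 library and 4 higher (median 0.11), and 2 and 3 after GC centring. AGPAT2, which makes phosphatidic acid, had 4.77 FPKM with pccl and 28.0 with USP6, 5.88-fold higher (5.11 to 6.78). Its relative AGPAT3 had 14 and 546 counts, 38.3-fold higher (22.7 to 70.6), and DGAT1, which makes triglyceride, was 2.26-fold higher (2.01 to 2.54). Centred on GC content, AGPAT2 and AGPAT3 were at 1.54 and 1.39 and DGAT1 was at 0.34, within the limit.

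Of 17 expressed genes of fatty acid oxidation, 4 were lower and 5 higher (median -0.13), and 1 and 4 after GC centring. The peroxisomal thiolase gene ACAA1 had 1.46 and 4.29 FPKM, 2.94-fold higher (2.55 to 3.39), whereas the mitochondrial thiolase gene ACAA2 had 4.60 and 1.32 FPKM, 3.49-fold lower (2.83 to 4.34). After GC centring both kept their direction, at 1.12 and -1.09. ACADS, the short-chain dehydrogenase, had 3.43 and 7.88 FPKM and was at 0.26 after centring.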
